A study of Homo sapiens with 48 samples.

Results

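The general mRNA decay machinery was followed here as 53 genes: the enzymes and cofactors that shorten poly(A) tails, remove caps and degrade the body of mRNAs. The list also holds the Staufen proteins and Regnase-1, which recruit or work with UPF1, and the Roquin proteins. The genes were picked by name, with earlier results of these data known and the core factors of nonsense-mediated decay (NMD) left out. Each of the 53 was found among the 58870 genes of the count table. All 53 also passed the filter on low counts and are among the 16697 genes tested. UPF1 is the helicase that NMD depends on, and the comparison asks how the mRNAs of the wider decay machinery respond when UPF1 is knocked down in cells that carry a tag, wild-type UPF1 or a UPF1 mutant.

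The cells were Flp-In 293 T-REx, a human embryonic kidney line with one genomic site for inserting a transgene. There were 8 stable lines. 6 carried CLIP-tagged UPF1 mutants, named in the labels LECY, F192E, FE-ER, I757R, IR-ER and E797R, 1 carried CLIP-tagged wild-type UPF1 (called WT here), and 1 carried the CLIP tag with no UPF1 (called CLIP). Each line received 40 nM of an siRNA against UPF1 (siUPF1) or of a non-targeting siRNA (siNT) for 72 h, with 3 libraries per line and siRNA, 48 in all, which the series text calls biological replicates. The siRNA is a knockdown, and its size can be read from the UPF1 counts in CLIP alone, as given further on. The labels do not give the promoter of the transgenes, whether a line is 1 clone or a pool, or what the names LECY, FE-ER and IR-ER stand for.

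An mRNA is usually degraded from its ends. Deadenylases (CCR4-NOT, PAN2-PAN3 and PARN) trim the poly(A) tail. The LSM ring and decapping activators then bring in the decapping enzyme DCP2, and XRN1 digests the decapped body, or the exosome with the SKI complex digests it from the other end. NMD feeds into the same machinery, since UPF1 and its partners attract decapping and deadenylation factors to their targets. Staufen-mediated decay and Regnase-1 use UPF1 as well.

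The libraries held 6016999 to 14551820 expected counts. UPF1 had 20.4 ± 0.916 CPM in CLIP cells with siUPF1 and 105.7 ± 7.45 CPM with siNT (CPM, counts scaled to the TMM-corrected library size; mean ± SD, n = 3 each), a log2 change of −2.37 (SE 0.13, adjusted p = 2.1e-17). In the lines with CLIP-UPF1 it had at least 3050 CPM in every library, and transgene and endogenous reads were summed there, so the knockdown cannot be read from this gene in those lines. Of the 293 markers, NEFL, VIM, INA and KRT18 had 28.8 CPM or more in every library, while NEFM, PAX2 and LHX1 did not exceed 10.7 CPM. The blood and hepatocyte markers PTPRC, HBB and ALB did not exceed 0.384 CPM in any library, and 6 fibroblast markers, with DCN at 0 in 46 libraries, summed to between 4.04 and 13.2 CPM with siUPF1 and between 5.72 and 10.9 CPM with siNT. Mitochondrially encoded mRNAs took 2.19% to 4.41% of counts with siUPF1 and 1.98% to 3.62% with siNT. Of these 13 mRNAs 3 rose in FE-ER and 1 each in LECY and F192E, and their part in the results was not tested. Fewer mRNA molecules per cell and a change in the cells present cannot be told apart in bulk RNA.

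The summed level of the decay machinery was much the same with both siRNAs. The 53 genes together had 4378 to 5041 CPM over the 24 siUPF1 libraries (median 4654) and 4316 to 5024 CPM over the 24 siNT libraries (median 4768), and the ranges overlapped almost completely. Within this sum, 25 of the 53 genes were called in at least 1 line (adjusted p under 0.05 in edgeR's quasi-likelihood test over 16697 genes), 28 in none, and 0 in opposite directions in different lines. The 25 are 47.2% of the list, against 47.1% of all genes tested, and 0.479% of all genes were called in opposite directions, so these counts are no result about the decay genes. With the replicate number as a block, which pairs same-numbered libraries over all lines, 36 of the 53 were called in at least 1 line (67.9%, against 65.8% of all genes). A gene described as called in no line is one without the block, and the calls the block adds are given beside it.

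The counts per line were highest in LECY and CLIP, as was the share of all genes called. In LECY, 9 of the 53 rose and 10 fell, 35.8% in all against 29.4% of all genes tested, of which 15.8% rose and 13.6% fell. In F192E, 8 rose and 8 fell (30.2% against 21.8% of all genes, 11.8% rising and 10.1% falling), as in FE-ER (30.2% against 18.6%, 10.1% rising and 8.52% falling). I757R had 5 rises and 6 falls (20.8% against 15.9% of all genes, 8.13% rising and 7.79% falling). IR-ER had 4 rises and 5 falls (17.0%, equal to the 17.0% of all genes, 9.21% rising and 7.8% falling). E797R had 5 of each (18.9% against 16.1% of all genes, 8.34% rising and 7.73% falling). WT also had 5 of each (18.9% against 15.4% of all genes, 8.43% rising and 6.98% falling). CLIP had 10 of each (37.7% against 33.7% of all genes, 18.1% rising and 15.6% falling). Most of these shares lie close to the background, with FE-ER the farthest from it. None is a result about the decay genes as a group. The median log2 change of the 53 genes lay between −0.07 (in CLIP) and 0.03 (in E797R), and that of all genes between −0.03 and 0.02. With the replicate number as a block, the calls became 20 in I757R (28.5% of all genes), 18 in IR-ER (28.2%), 20 in E797R (27.4%) and 19 in WT (26.1%), and no call was lost in any line. Other settings gave fewer. FE-ER had 10 calls without the filter on low counts and 10 to 12 with 1 library left out. Where only the groups compared were fitted, I757R had 7 and WT 6. With 1 library left out, I757R went down to 7 calls, and IR-ER and E797R each to 6.

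**Figure D1:**
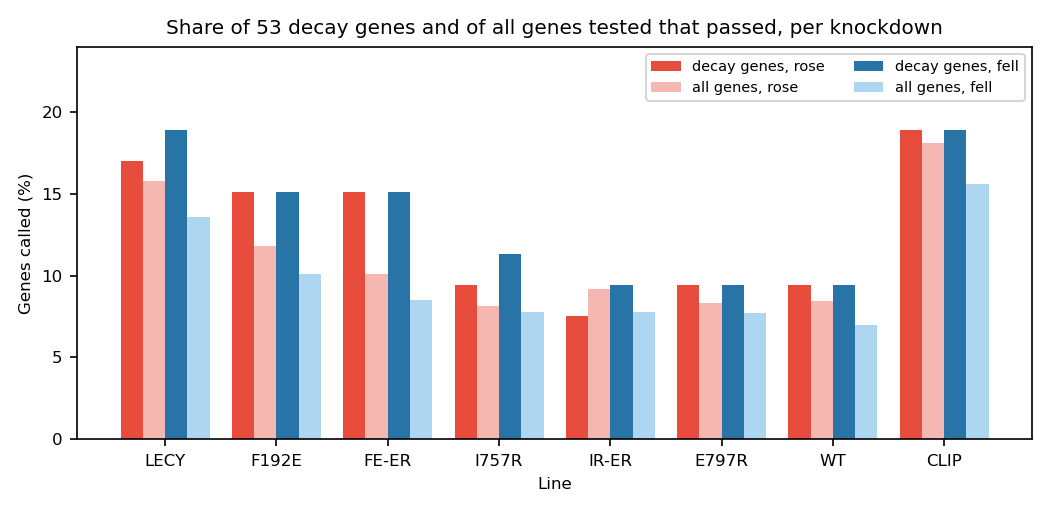
Share of the 53 decay genes and of all 16697 genes tested (y axis, percent) that rose or fell at an adjusted p under 0.05 with siUPF1 over siNT in each line (x axis). Both sets have their highest shares in LECY (17.0% of decay genes rose and 18.9% fell) and CLIP (18.9% rose and 18.9% fell).

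Against this background, 8 genes were called in the same direction in all 8 lines. DCP1A, EXOSC5 and EXOSC6 rose in every line (5.66% of the 53, against 3.54% of all genes). CNOT6, CNOT7, PARN, STAU1 and RC3H2 fell in every line (9.43% against 3.2% of all genes). For these genes other than CNOT7, no siUPF1 library of any line overlapped any siNT library of any line, which held for 7 of the 53 genes (13.2%) and for 4.38% of all genes tested. Since the list was chosen with earlier results of these data known, these shares describe the list and test nothing. These 8 genes were also called in the lines that carried CLIP-UPF1. A response to loss of UPF1 and another effect of siUPF1 cannot be told apart there, and neither was tested. The heat map of all 53 genes shows these 8 genes as unbroken bands across lines, among many pale rows.

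**Figure D2:**
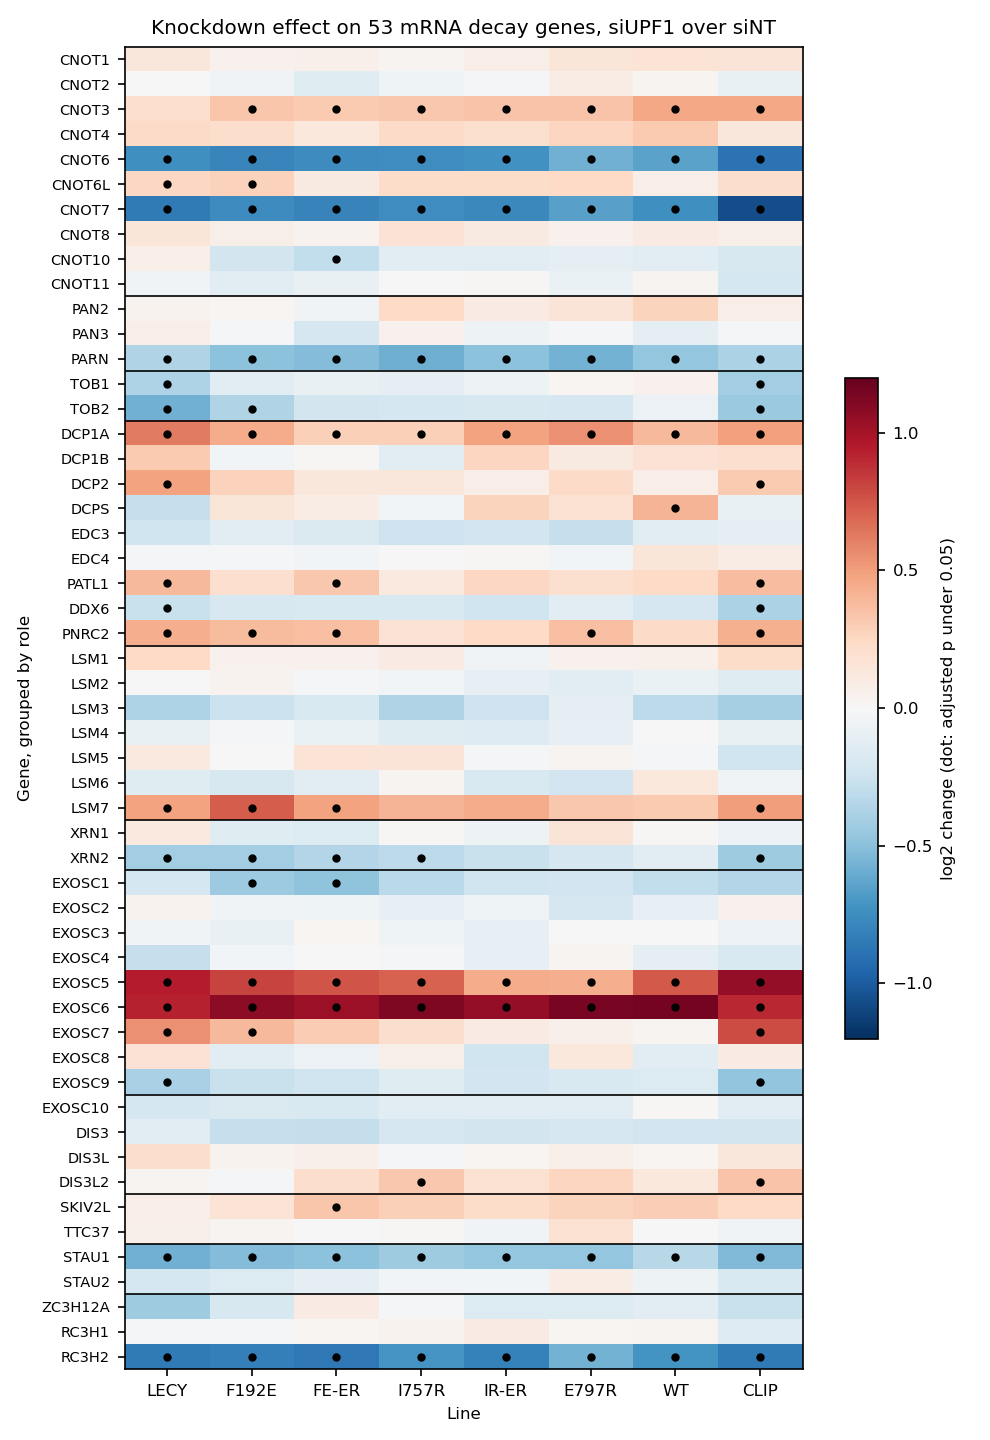
log2 change with siUPF1 over siNT (colour) of the 53 decay genes (y axis, grouped by role) in the 8 lines (x axis), with a dot where the adjusted p was under 0.05. EXOSC6 is the deepest red row (0.91 to 1.14) and CNOT6, CNOT7 and RC3H2 are the deepest blue rows (from −1.07 to −0.57), while 28 rows carry no dot.

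To show the start regions of genes that moved in every line, the 250 bases upstream of the RefSeq start (GRCh38.p14, read 5′ to 3′ on the gene's strand) are printed for 2 that rose and 2 that fell. EXOSC5 lies at chr19:41397360-41397609 (minus strand), EXOSC6 at chr16:70251941-70252190 (minus strand), CNOT6 at chr5:180494129-180494378 (plus strand) and RC3H2 at chr9:122905360-122905609 (minus strand). RefSeq and GENCODE place the start of EXOSC5 differently, and the last 120 bases of its window lie within the GENCODE 29 gene, while the other 3 windows lie outside theirs. Capitals mark matches, on either strand, to 3 of the motifs searched: NRF1 (GCGCA, any base, then GCGC), an E-box (CACGTG) and a CCAAT box (CCAAT).
EXOSC5: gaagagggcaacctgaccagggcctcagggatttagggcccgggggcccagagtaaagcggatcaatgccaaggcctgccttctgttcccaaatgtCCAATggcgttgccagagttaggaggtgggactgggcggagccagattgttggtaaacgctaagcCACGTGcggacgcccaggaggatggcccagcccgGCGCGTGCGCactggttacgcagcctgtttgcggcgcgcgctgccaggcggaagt
EXOSC6: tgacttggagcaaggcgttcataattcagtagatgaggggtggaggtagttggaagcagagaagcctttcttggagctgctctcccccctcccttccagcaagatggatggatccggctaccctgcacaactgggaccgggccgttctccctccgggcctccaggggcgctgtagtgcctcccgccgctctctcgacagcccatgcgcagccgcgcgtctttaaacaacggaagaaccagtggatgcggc
CNOT6: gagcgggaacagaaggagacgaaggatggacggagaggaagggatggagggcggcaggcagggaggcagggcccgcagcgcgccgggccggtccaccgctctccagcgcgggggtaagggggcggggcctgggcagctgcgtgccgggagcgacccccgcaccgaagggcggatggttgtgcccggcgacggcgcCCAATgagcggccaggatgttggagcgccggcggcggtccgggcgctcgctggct
RC3H2: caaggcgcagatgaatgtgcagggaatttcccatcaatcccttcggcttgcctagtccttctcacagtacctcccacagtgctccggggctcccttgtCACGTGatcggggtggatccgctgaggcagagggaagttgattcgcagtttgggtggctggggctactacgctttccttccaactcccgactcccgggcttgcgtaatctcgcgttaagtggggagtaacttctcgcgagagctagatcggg
The EXOSC5 window holds all 3 of these motifs, that of CNOT6 a CCAAT box, that of RC3H2 an E-box, and that of EXOSC6 no match. Promoters were matched for 44 of the 53 genes. The NRF1 letters were found in 6 of the 44 (13.6%, against 5.53% of all 27305 promoters in the table), the E-box in 4 (9.09% against 6.49%), and the CCAAT box in 15 (34.1% against 33.0%). An ETS core (CCGGAAG) was found in 5 (11.4% against 8.82%), a cyclic AMP response element (TGACGTCA) in 1 (2.27% against 1.77%), and the YY1 letters (AAGATGG directly followed by CGGC) in 0 (0.256% of all promoters). The median GC content of the windows was 63.6% for the decay genes and 58.0% for all promoters. These matches describe the letters in the windows, and no binding was measured.

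The exosome, the barrel-shaped 3′ to 5′ RNA-degrading complex, held the largest rises. EXOSC6 encodes a subunit of its ring of RNase PH-like proteins (chromosome 16, 70246778 to 70251930, hg38, minus strand). In WT cells it had 267, 258 and 261 CPM with siUPF1, against 125, 115 and 115 CPM with siNT. CLIP cells had 245, 246 and 243 CPM with siUPF1, against 130.4, 132 and 128 CPM with siNT. The siUPF1 libraries were far above the siNT libraries in both lines, with little scatter within a group. Over the 24 siUPF1 libraries EXOSC6 ran from 227 to 280.4 CPM (median 257), and over the 24 siNT libraries from 111 to 133 CPM (median 123). Its log2 change was 0.93 to 1.13 in the mutants, 1.14 in WT (SE 0.07, adjusted p = 3.08e-16) and 0.91 in CLIP (SE 0.07, adjusted p = 4.41e-14). The change in WT exceeded that in CLIP by 0.24, which did not pass the test of the difference (SE 0.09, 95% interval 0.05 to 0.42, adjusted p = 0.177). GENCODE 29 lists 1 transcript for EXOSC6.

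EXOSC5, another ring subunit (chromosome 19, 41386374 to 41397479, minus strand), rose less evenly. With siUPF1 it had 39.7, 33.0 and 38.2 CPM in LECY, 38.6, 35.2 and 28.7 CPM in WT and 41.8, 37.6 and 42.8 CPM in CLIP. With siNT it had 18.1, 19.2 and 20.4 CPM in LECY, 18.9, 19.5 and 23.2 CPM in WT and 23.2, 15.6 and 20.3 CPM in CLIP. Libraries of the 2 siRNAs did not overlap in any line, and the closest were IR-ER and E797R. The log2 changes were 0.94 in LECY, 0.44 in IR-ER (adjusted p = 0.0223), 0.44 in E797R (adjusted p = 0.0272), 0.73 in WT (SE 0.14, adjusted p = 0.000202) and 1.06 in CLIP (SE 0.14, adjusted p = 6.97e-08). None of the 8 differences between lines that were tested passed. The IR-ER and E797R calls were lost without siNT replicate 1 or 2 or siUPF1 replicate 1 or 2 of IR-ER, and without siNT replicate 2 or siUPF1 replicate 1 or 3 of E797R (adjusted p up to 0.189).

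EXOSC7, also a ring subunit (chromosome 3, 44975241 to 45036066, plus strand), gave another pattern across the lines. In WT cells it had 17.5, 17.9 and 22.2 CPM with siUPF1, against 19.5, 17.7 and 19.0 CPM with siNT. In CLIP cells it had 24.6, 31.4 and 29.8 CPM with siUPF1, against 13.4, 18.5 and 17.7 CPM with siNT. The WT libraries of the 2 siRNAs overlapped, and those of CLIP did not. Its log2 change was 0.55 in LECY (adjusted p = 0.000585) and 0.39 in F192E (adjusted p = 0.0149). It was 0.31 in FE-ER and 0.21 in I757R, and 0.10 in IR-ER and 0.07 in E797R, all 4 short of the test. It was 0.04 in WT (SE 0.12, adjusted p = 0.892) and 0.78 in CLIP (SE 0.12, adjusted p = 1.77e-06). The F192E call was lost without its siNT replicate 1 or its siUPF1 replicate 3, and with the block FE-ER was called as well. The difference of WT from CLIP was −0.74 (SE 0.17, 95% interval −1.09 to −0.40, adjusted p = 0.00561), and it passed with any 1 of the 12 libraries left out. It missed the threshold where only the libraries of the groups compared were fitted (adjusted p = 0.086).

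Among the other exosome genes, the ring subunit EXOSC9 fell in LECY (log2 change −0.39, adjusted p = 0.00503) and CLIP (−0.47, SE 0.11, adjusted p = 0.000598), the LECY call lost without siNT replicate 2 or siUPF1 replicate 3. EXOSC1, of the RNA-binding cap, fell in F192E (−0.44) and FE-ER (−0.48), and its adjusted p in CLIP was 0.0545 at −0.35. EXOSC2, EXOSC3, EXOSC4 and EXOSC8 were called in no line. With the replicate block, EXOSC9 also fell in F192E, FE-ER and IR-ER, EXOSC1 in I757R, WT and CLIP, and EXOSC2 in E797R. Among the nucleases, EXOSC10, DIS3 and DIS3L, which cut RNA for the exosome, were called in no line, with log2 changes between −0.28 and 0.21. With the block, DIS3 fell in every line but LECY, EXOSC10 fell in LECY, F192E and FE-ER, and DIS3L rose in LECY. DIS3L2, which degrades uridylated RNA without the exosome, rose in I757R (0.32, adjusted p = 0.0119) and CLIP (0.35, adjusted p = 0.00308), the CLIP call lost without the filter on low counts (adjusted p = 0.131). SKIV2L, the helicase of the SKI complex, rose in FE-ER (0.33, adjusted p = 0.0248), and its partner TTC37 was called in no line. The block added a rise of DIS3L2 in E797R and rises of SKIV2L in I757R, E797R, WT and CLIP. Several of these calls were lost when 1 library was left out: DIS3L2 in I757R without siNT replicate 1 or siUPF1 replicate 2, SKIV2L in FE-ER without siNT replicate 2 or 3 or siUPF1 replicate 2, EXOSC1 in F192E without siNT replicate 2 or siUPF1 replicate 1 or 3, and EXOSC1 in FE-ER without siNT replicate 2 or siUPF1 replicate 1.

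**Figure D3:**
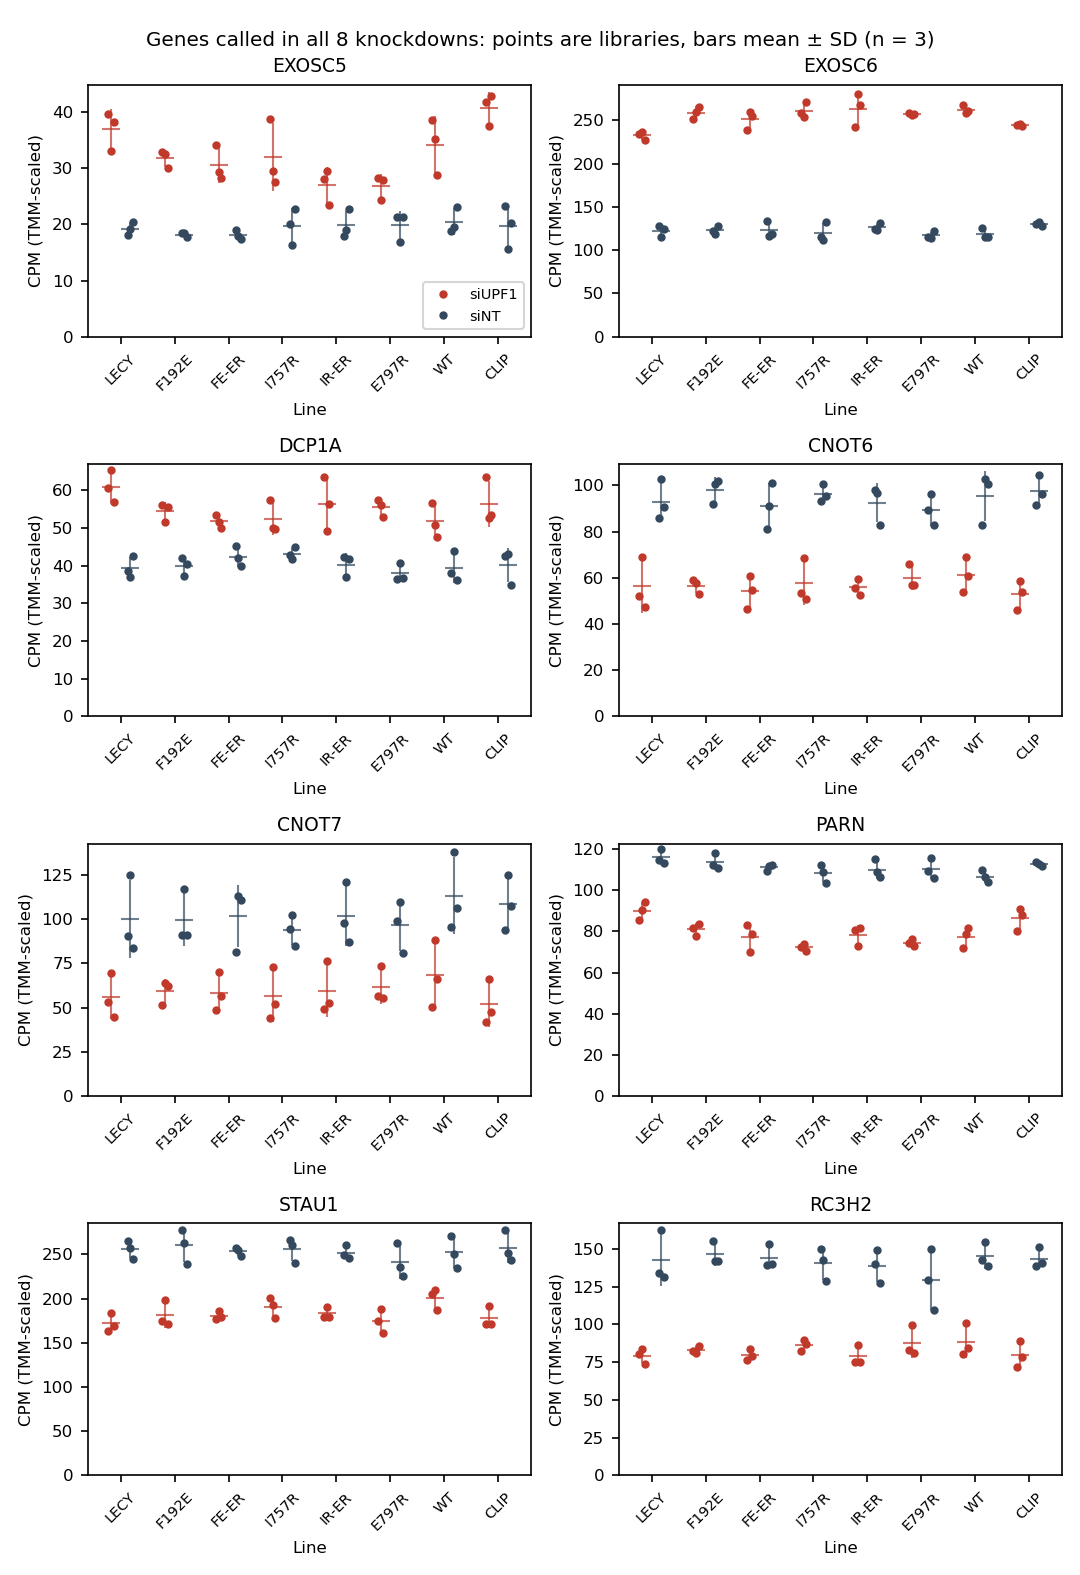
Level in CPM (y axis, starting at 0) of the 8 genes called in all 8 knockdowns, by line (x axis), with siUPF1 left of siNT. Points are libraries and bars mean ± SD of 3. The siUPF1 and siNT points are separate in every line for each gene, as for EXOSC6 (at least 227 CPM with siUPF1 and at most 133 CPM with siNT).

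Among the deadenylation genes, CNOT6, CNOT7 and PARN fell in every line and TOB1, TOB2 and CNOT10 in some, while CNOT3 and CNOT6L rose in some. CCR4-NOT, the main cytoplasmic deadenylase, has catalytic subunits of 2 kinds, each from a pair of paralogs: CNOT6 or CNOT6L, and CNOT7 or CNOT8. CNOT7 (chromosome 8, 17224964 to 17246878, minus strand) had 50.3, 88.3 and 66.2 CPM in WT cells with siUPF1, against 95.7, 138 and 107 CPM with siNT. CLIP cells had 41.9, 66.3 and 47.7 CPM with siUPF1, against 94.0, 125 and 107 CPM with siNT. The siUPF1 libraries were lower in both lines without overlap. Replicate 2 was the highest of the 3 in 16 of 16 groups for CNOT7, so the spread within groups followed the replicate number. This was not particular to CNOT7: replicate 2 was highest in 16 groups for DIS3 and in 15 for CNOT2, LSM3 and LSM5. Replicate 1 was highest in 15 groups for CNOT1, while for EXOSC6 and PARN each replicate was highest in 5 or 6. The log2 change was −0.85 to −0.65 in the mutants, −0.74 in WT (SE 0.22, adjusted p = 0.0154) and −1.07 in CLIP (SE 0.22, adjusted p = 0.000179). With the replicate block CNOT7 was called in all 8 lines. Without the block, the calls held in LECY, FE-ER and CLIP with any 1 library left out. In WT, I757R and IR-ER they were lost without siNT replicate 2 or siUPF1 replicate 1 or 3, in F192E without siNT replicate 2 or siUPF1 replicate 1, and in E797R without siNT replicate 1 or 2 or siUPF1 replicate 1 or 3 (adjusted p up to 0.15). The group means most like those of CNOT7 over the 16 groups were those of LPGAT1 (Pearson r = 0.995), KIF23 (0.992) and MRPL19 (0.992), a description over groups that share their libraries and scaling.

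CNOT6 (chromosome 5, 180494412 to 180578405, plus strand) had 53.9, 68.9 and 60.8 CPM in WT cells with siUPF1, against 82.9, 103 and 101 CPM with siNT. In CLIP cells it had 45.9, 58.6 and 53.8 CPM with siUPF1, against 91.6, 105 and 96.3 CPM with siNT. Over all lines, no siUPF1 library exceeded 69.2 CPM and no siNT library lay under 81.3 CPM. Its log2 change was −0.79 to −0.58 in the mutants, −0.64 in WT (SE 0.12, adjusted p = 0.000238) and −0.88 in CLIP (SE 0.12, adjusted p = 3.62e-07), and each call held with any 1 library left out. Its paralog CNOT6L had log2 changes of 0.08 to 0.28 in the 8 lines and rose in LECY and F192E, both calls lost without siNT replicate 1 or siUPF1 replicate 1 or 3, in LECY also without siNT replicate 3 and in F192E also without siNT replicate 2. With the block CNOT6L rose in I757R, IR-ER, E797R and CLIP as well. The paralog of CNOT7, CNOT8, had log2 changes of 0.05 to 0.18 and was called in no line. The difference between paralogs was not tested. The plot of paralog pairs shows that the 95% intervals of CNOT6 and CNOT6L, and of CNOT7 and CNOT8, did not overlap in any line.

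**Figure D4:**
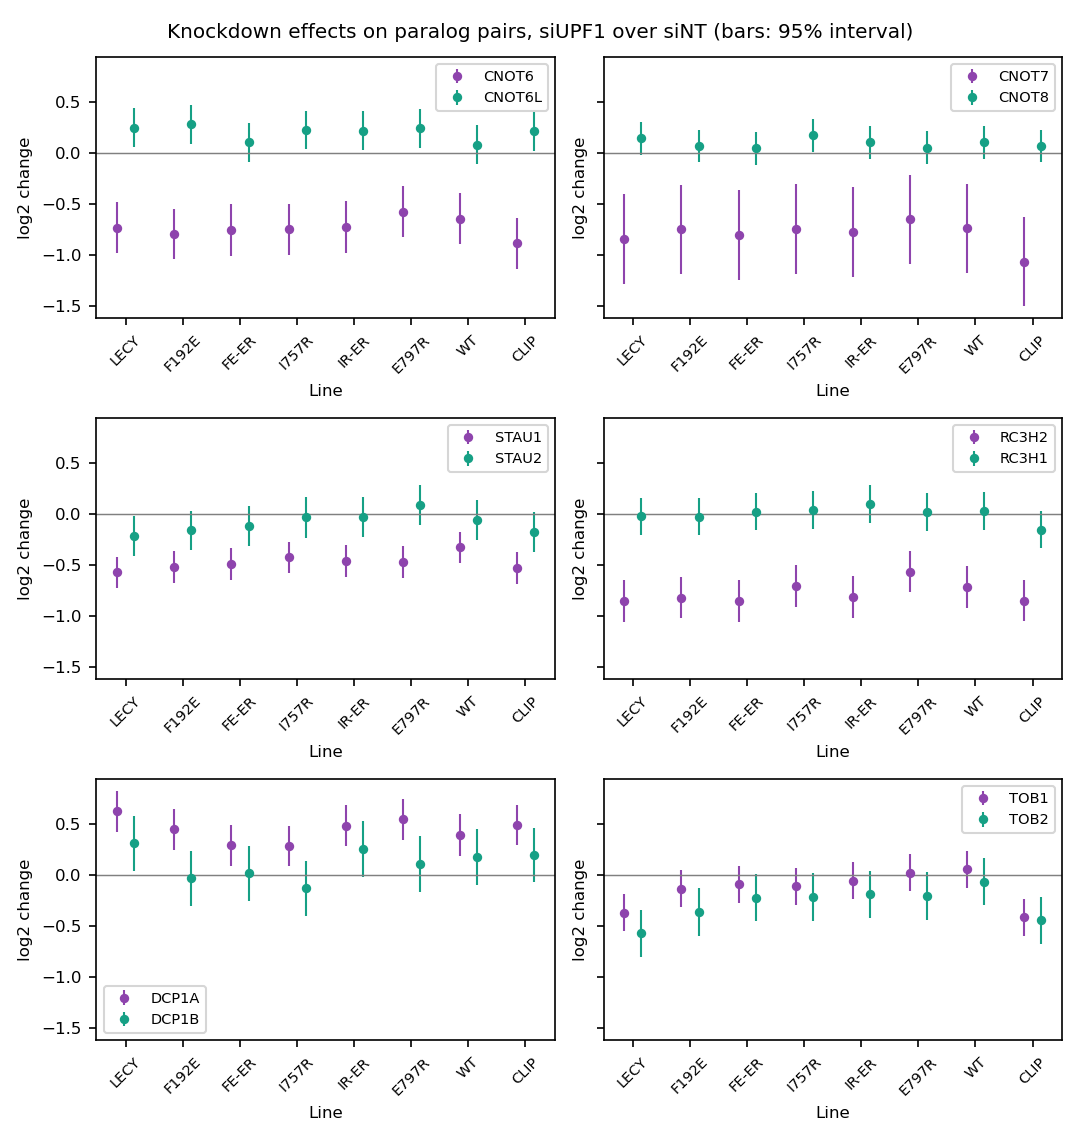
log2 change with siUPF1 over siNT and its 95% interval (y axis) for 6 pairs of paralogs in the 8 lines (x axis). CNOT6, CNOT7, STAU1 and RC3H2 lie below 0 in every line (from −1.07 to −0.33), while CNOT6L, CNOT8, STAU2 and RC3H1 lie between −0.21 and 0.28. The intervals of TOB1 and TOB2 overlap in every line, and those of DCP1A and DCP1B in all but F192E.

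In the rest of CCR4-NOT, CNOT3, of its NOT module, rose in all lines but LECY, by 0.32 to 0.47 on the log2 scale where called (0.47 in WT, adjusted p = 0.00128, and 0.46 in CLIP, adjusted p = 0.000531). In LECY it was 0.20 (SE 0.10, adjusted p = 0.15), and the difference of LECY from WT did not pass (−0.27, 95% interval −0.56 to 0.03, adjusted p = 0.448). Its calls in WT and CLIP held with any 1 library left out, but the WT call missed the threshold where only the WT libraries were fitted (adjusted p = 0.0631). Those in the mutants were lost in F192E without siNT replicate 2 or siUPF1 replicate 1 or 2, in FE-ER without replicate 1 or 3 of either siRNA, and in I757R without any library but siUPF1 replicate 3. They were also lost in IR-ER without siNT replicate 1 or 3 or siUPF1 replicate 1 or 2, and in E797R without replicate 1 or 2 of either siRNA. CNOT10 fell in FE-ER (−0.29, adjusted p = 0.0306), lost without siNT replicate 1 or 2 or siUPF1 replicate 3. The scaffold CNOT1, CNOT2, the ubiquitin ligase CNOT4 and CNOT11 were called in no line. With the block, CNOT1 rose in LECY, E797R, WT and CLIP, CNOT4 rose in LECY, F192E, I757R, E797R and WT, CNOT10 also fell in F192E and CLIP, and CNOT11 fell in CLIP.

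PARN, a poly(A)-specific ribonuclease also known for trimming small noncoding RNAs (chromosome 16, 14435701 to 14632728, minus strand), had 71.8, 78.9 and 81.5 CPM in WT cells with siUPF1, against 109.8, 106 and 104 CPM with siNT. CLIP cells had 80.5, 91.0 and 88.0 CPM with siUPF1, against 114, 113 and 112 CPM with siNT. The siUPF1 libraries were lower in all lines, at 70.2 to 94.3 CPM against 104 to 120.3 CPM with siNT. The log2 change was −0.59 to −0.36 in the mutants, −0.46 in WT (SE 0.07, adjusted p = 2.63e-06) and −0.38 in CLIP (SE 0.07, adjusted p = 1.44e-05). PAN2 and PAN3, which start the trimming of long tails, were called in no line.

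The TOB adaptors, which link CNOT7 and CNOT8 to poly(A)-binding protein, were called in some lines only. TOB1 (chromosome 17, 50862223 to 50867978, minus strand) had 52.4, 59.2 and 46.3 CPM in WT cells with siUPF1, against 48.9, 48.2 and 54.4 CPM with siNT. In CLIP cells it had 35.0, 47.3 and 39.8 CPM with siUPF1, against 52.1, 51.1 and 59.8 CPM with siNT. The WT libraries overlapped and the CLIP libraries did not. TOB1 fell in LECY (log2 change −0.37, SE 0.09, adjusted p = 0.0016) and in CLIP (−0.42, SE 0.09, adjusted p = 0.000308). Its change was −0.13 to 0.02 in the other mutants and 0.06 in WT (adjusted p = 0.753). The difference of WT from CLIP was 0.47 (SE 0.13, 95% interval 0.22 to 0.73, adjusted p = 0.0214). That difference was lost without siNT replicate 1 or 2 or siUPF1 replicate 2 of WT, or without siNT replicate 3 or siUPF1 replicate 1 or 3 of CLIP, without the filter on low counts, and where only the groups compared were fitted (adjusted p up to 0.363). TOB2 fell in LECY (−0.57, adjusted p = 0.000187), F192E (−0.36, adjusted p = 0.0188) and CLIP (−0.44, adjusted p = 0.0024), with −0.07 in WT. The F192E call was lost without siNT replicate 1 or 2 or siUPF1 replicate 2 or 3. With the block TOB2 also fell in FE-ER.

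Decapping genes that were called rose, but for the helicase DDX6 and, with the replicate block alone, EDC3. DCP1A, the cofactor that activates DCP2 (chromosome 3, 53283428 to 53347610, minus strand), had 56.8, 50.9 and 47.6 CPM in WT cells with siUPF1, against 38.1, 43.9 and 36.2 CPM with siNT. CLIP cells had 63.5, 52.6 and 53.4 CPM with siUPF1, against 42.7, 43.0 and 34.9 CPM with siNT. The siUPF1 libraries were higher without overlap in each line. The log2 change ran from 0.28 in I757R (adjusted p = 0.0436) to 0.62 in LECY (adjusted p = 4.92e-06) among the mutants, and was 0.39 in WT (SE 0.10, adjusted p = 0.00524) and 0.49 in CLIP (SE 0.10, adjusted p = 0.000129). The WT call was lost without siUPF1 replicate 1, the FE-ER call without any siUPF1 replicate or siNT replicate 2 or 3, and the I757R call without any siNT replicate or siUPF1 replicate 1 or 2 (adjusted p up to 0.222). Its paralog DCP1B was called in no line, with log2 changes of −0.13 to 0.31, and with the block it rose in LECY.

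DCP2, the decapping enzyme itself, rose in LECY (log2 change 0.48, SE 0.11, adjusted p = 0.000984) and in CLIP (0.31, SE 0.11, adjusted p = 0.0288), the CLIP call lost without siNT replicate 1 or 3 or siUPF1 replicate 2 or 3. DDX6, which represses translation and promotes decapping, fell in LECY (−0.27, adjusted p = 0.0256) and CLIP (−0.38, adjusted p = 0.00128), the LECY call lost without siNT replicate 2 or siUPF1 replicate 1 or 3. TOB1, DCP2, DDX6 and EXOSC9 were thus called in LECY and CLIP and in no other line (7.55% of the 53, against 5.51% of all genes). With the block this held for TOB1 alone (1.89%, against 4.92% of all genes): DCP2 also rose in F192E and E797R, and DDX6 also fell in every line but E797R. PATL1, which bridges DDX6 and the LSM ring, rose in LECY, FE-ER and CLIP (0.32 to 0.39), the FE-ER call lost without any siNT replicate or siUPF1 replicate 1, and the block added F192E, IR-ER and WT. PNRC2, described as a link between UPF1 and DCP1A, rose in LECY, F192E, FE-ER, E797R and CLIP (0.36 to 0.44). Its calls held in LECY and CLIP with any 1 library left out. They were lost in F192E without siNT replicate 1 or 3 or siUPF1 replicate 1 or 2, in FE-ER without any siNT replicate or siUPF1 replicate 2 or 3, and in E797R without siNT replicate 3 or siUPF1 replicate 1 or 2. The block added IR-ER and WT. EDC3 and EDC4, scaffolds of decapping, were called in no line, and with the block EDC3 fell in LECY, I757R, IR-ER and E797R. DCPS, which clears the cap left over after 3′ to 5′ decay, rose in WT (0.41, adjusted p = 0.0363), with −0.28 in LECY and −0.09 in CLIP, both short of the test. The WT call was lost without siNT replicate 1 or 3 or siUPF1 replicate 1 or 2.

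Within the LSM ring, which binds shortened tails, LSM7 rose in LECY, F192E, FE-ER and CLIP (0.48 to 0.73 on the log2 scale), and the other 6 subunits were called in no line. With the block LSM7 also rose in I757R and IR-ER, and LSM3 fell in LECY, I757R, WT and CLIP. The LSM7 call held in F192E with any 1 library left out and was lost in CLIP without siNT replicate 1 or siUPF1 replicate 2. It was also lost without siUPF1 replicate 2 or 3 in LECY and FE-ER, without siNT replicate 1 or 2 in LECY and without siNT replicate 1 or 3 in FE-ER. Among the 5′ to 3′ exonucleases, the nuclear XRN2, known for its part in transcription termination, fell in LECY, F192E, FE-ER, I757R and CLIP (−0.43 to −0.31), with −0.14 in WT (adjusted p = 0.385). The I757R call was lost without siNT replicate 1 or 2 or siUPF1 replicate 1 or 3, and the block added IR-ER and E797R. XRN1, its cytoplasmic counterpart, was called in no line, with log2 changes of −0.16 to 0.15.

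**Figure D5:**
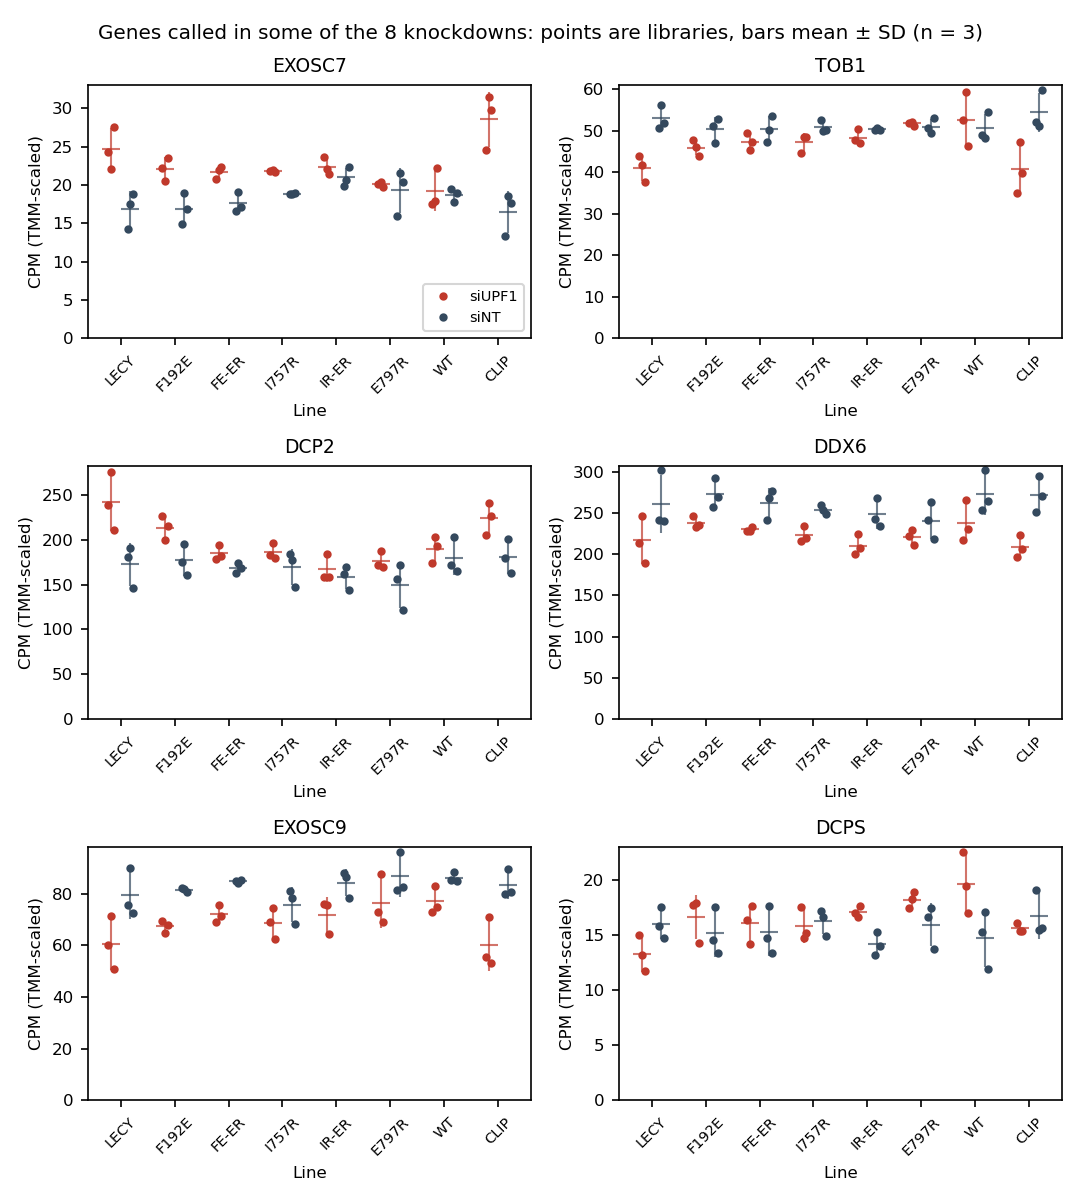
Level in CPM (y axis, starting at 0) of 6 genes called in some lines, by line (x axis), with siUPF1 left of siNT. Points are libraries and bars mean ± SD of 3. EXOSC7 with siUPF1 averages 19.2 CPM in WT and 28.6 CPM in CLIP, and TOB1 with siUPF1 averages 41.0 CPM in LECY, 52.6 CPM in WT and 40.7 CPM in CLIP.

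In the Staufen and Roquin pairs, 1 paralog was called and the other was not. STAU1, the double-stranded RNA-binding protein that recruits UPF1 in Staufen-mediated decay (chromosome 20, 49113339 to 49188367, minus strand), had 205, 210.0 and 187 CPM in WT cells with siUPF1, against 270.4, 251 and 235 CPM with siNT. In CLIP cells it had 171, 191 and 172 CPM with siUPF1, against 277, 251 and 244 CPM with siNT. The siUPF1 libraries were lower without overlap. The log2 change was −0.57 to −0.43 in the mutants, −0.33 in WT (SE 0.08, adjusted p = 0.00217) and −0.53 in CLIP (SE 0.08, adjusted p = 6.84e-07). STAU2 was called in no line (−0.21 to 0.09). The WT call of STAU1 missed the threshold where only the WT libraries were fitted (adjusted p = 0.0752).

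RC3H2, which encodes Roquin-2, a protein that binds stem-loops and directs mRNAs to deadenylation (chromosome 9, 122844556 to 122905341, minus strand), had 80.2, 101 and 84.4 CPM in WT cells with siUPF1, against 143, 155 and 139 CPM with siNT. CLIP cells had 71.9, 88.8 and 78.4 CPM with siUPF1, against 139, 152 and 141 CPM with siNT. The highest siUPF1 library of any line had 101 CPM and the lowest siNT library 109.8 CPM. Its log2 change was −0.86 to −0.57 in the mutants, −0.72 in WT (SE 0.10, adjusted p = 1.72e-06) and −0.85 in CLIP (SE 0.10, adjusted p = 1.27e-08). RC3H1, encoding Roquin-1, had log2 changes of −0.15 to 0.10 and was called in no line, though with the block it fell in CLIP. ZC3H12A, encoding the endonuclease Regnase-1, was called in no line, at 3.13 to 6.90 CPM with siUPF1 and 3.49 to 6.50 CPM with siNT, the lowest counts of the list.

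Did wild-type UPF1 or its mutants change these responses? Of the 20 genes called in CLIP, 9 were also called in WT in the same direction and 11 were not. A call in one line and not in the other does not show a difference, and the difference of WT from CLIP passed for 2 of the 53 (3.77%, against 4.0% of all genes, 0.767% higher and 3.23% lower in WT): EXOSC7 and TOB1, given above. At an unadjusted p under 0.05 there were 8. With the replicate number as a block there were 4 (9.55% of all genes), adding TOB2 and XRN2. For the 8 genes called in every line, the differences of WT from CLIP ran from −0.32 (EXOSC5) to 0.33 (CNOT7), and none passed. Their 95% intervals, from the fit without the block, reached −0.72 for EXOSC5 and 0.94 for CNOT7. Sizeable differences could therefore go unseen in that fit. With the block, none of these 8 genes passed either.

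Set against WT, LECY differed in 1 of the 53 genes, DCPS (1.89%, against 3.31% of all genes, 2.76% higher and 0.551% lower in LECY). DCPS had 14.99, 13.2 and 11.7 CPM in LECY with siUPF1 and 15.8, 17.5 and 14.7 CPM with siNT. In WT it had 22.5, 19.4 and 17.0 CPM with siUPF1 and 15.3, 17.1 and 11.9 CPM with siNT. The siRNAs overlapped by library in LECY and, narrowly, in WT. The difference of the log2 changes was −0.68 (SE 0.20, 95% interval −1.08 to −0.29, adjusted p = 0.0401). It was lost without any one of 8 of the 12 libraries, namely siNT replicate 1 or 2 or siUPF1 replicate 2 or 3 of LECY and siNT replicate 1 or 3 or siUPF1 replicate 1 or 2 of WT (adjusted p up to 0.242). With the replicate number as a block, LECY differed from WT in 5 genes (8.46% of all genes), adding TOB1, TOB2, DCP2 and EXOSC7. Of the 19 genes called in LECY and the 20 called in CLIP, 18 were called in both in the same direction (34.0% of the 53, against 24.6% of all genes). The knockdown effects of LECY and CLIP differed in 0 of the 53 genes in edgeR (0.00599% of all genes), with 1 at an unadjusted p under 0.05. In DESeq2 they also differed in 0. The estimated differences lay between −0.32 (DIS3L2) and 0.36 (LSM5), with a median half-width of the 95% interval of 0.32. Differences of that size could therefore go unseen.

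The other mutants, compared with the same WT libraries, differed from WT in 0 of the 53 genes in edgeR and in DESeq2. At an unadjusted p under 0.05 there were 2 genes for F192E and 1 for I757R, and 0 for each of FE-ER, IR-ER and E797R. Of all genes, 0.18% passed in F192E, 0.00599% in FE-ER and 0.0% in I757R, IR-ER and E797R. The estimated differences of the 53 genes lay between −0.44 (DCPS in I757R) and 0.41 (LSM7 in F192E), with a median half-width of the 95% interval of 0.32 in each of these mutants. These intervals are not adjusted for the number of genes tested, and the estimates of −0.44 and 0.41 did not pass. Differences of that size and smaller could therefore go unseen in this fit, which leaves out the replicate block. With the block, each of these mutants also differed from WT in 0 of the 53 genes.

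With siNT, where endogenous UPF1 is not targeted, WT differed from CLIP, and each mutant from WT, in 0 of the 53 genes in edgeR, in DESeq2 and with the replicate number as a block. At an unadjusted p under 0.05 there was 1 gene each for WT against CLIP and for F192E, FE-ER and E797R against WT, and 0 for I757R, IR-ER and LECY against WT. Of all genes, 0.012% passed for WT against CLIP, 0.018% for E797R, 0.00599% each for FE-ER, I757R, IR-ER and LECY, and 0.0% for F192E. Estimates for single genes ran from −0.35 to 0.36 on the log2 scale over these 7 comparisons.

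A second list of 52 decay factors outside the 53, also chosen with earlier results of these data known, was read the same way. In LECY 10 rose and 6 fell, in the other mutants 6 to 9 rose and 3 to 4 fell, in WT 7 rose and 3 fell, and in CLIP 9 rose and 8 fell. The shares of the list were 19.2% rising and 11.5% falling in LECY, against 15.8% and 13.6% of all genes. WT had 13.5% and 5.77%, against 8.43% and 6.98% of all genes, and CLIP 17.3% and 15.4%, against 18.1% and 15.6%. F192E had 15.4% rising and 7.69% falling, against 11.8% and 10.1% of all genes, and FE-ER 15.4% and 7.69%, against 10.1% and 8.52%. I757R had 11.5% and 5.77%, against 8.13% and 7.79%, and IR-ER 13.5% and 5.77%, against 9.21% and 7.8%. In E797R the shares were 17.3% and 5.77%, against 8.34% and 7.73% of all genes. The rising share was above that of all genes in every line but CLIP. The falling share was below that of all genes in every line. No test of the list as a set was run, so the counts are no result about the list. In all lines AGO1, an Argonaute of miRNA silencing (0.54 in WT, 0.69 in CLIP), the CCR4-NOT subunit CNOT9 (0.23 in WT, 0.48 in CLIP), the decapping hydrolase NUDT3, SAMD4A, which recruits CCR4-NOT to stem-loops, and ZNF598, a sensor of collided ribosomes, rose. LSM14B, a partner of DDX6 (−0.61 in WT, −0.78 in CLIP), TNRC6C, the scaffold between Argonaute and CCR4-NOT, and ZFC3H1, a cofactor of the nuclear exosome, fell. Of all genes tested, 3.54% rose and 3.2% fell in all 8 lines. Rises and falls thus occurred side by side among these factors, as among the 53.

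Annotated transcript features were set beside the calls in CLIP. GENCODE 29 lists a transcript of the NMD class for 5 of the 10 decay genes that rose in CLIP, 4 of the 10 that fell and 21 of the 33 not called, against 50.5%, 37.8% and 41.5% of all coding genes with these calls. EXOSC5, EXOSC6 and EXOSC7, the largest rises in CLIP, have 0 such transcripts. The median length of the annotated 3′ untranslated region was 1079 bases for the genes that rose, 2182 for those that fell and 906 for those not called (all coding genes: 1138, 1397 and 1046). For EXOSC5, EXOSC6 and EXOSC7 the annotated lengths were 262, 4307 and 134 bases. The strand setting of the counting was not given, and exons of several members overlap a gene on the other strand: 2.22% of the exon bases of CNOT7 with VPS37A, 1.34% of EXOSC5 with BCKDHA, 7.97% of CNOT3 with LENG1, 5.39% of EXOSC9 with CCNA2 and 11.1% of TOB1 with TOB1-AS1. The largest such shares were 36.6% of EXOSC10 with AL109811.1, 26.7% of LSM1 with AC084024.3, 19.5% of EXOSC4 with AC109322.1 and 13.7% of EDC3 with CLK3. Others were 10.9% of DIS3 with BORA, 10.0% of CNOT1 with SETD6 and 8.34% of LSM3 with XPC. EXOSC7 shares 13.6% of its exon bases with CLEC3B on the same strand, a gene with too few counts to be tested. If the counting ignored the strand, reads in the stretches on the other strand cannot be told apart. The part of any of these overlaps in the changes was not tested.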

How the data were processed

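The deposited table held RSEM expected counts per gene for the 48 libraries (per the file header). Per the submitters' processing notes, the authors used cutadapt, STAR, RSEM and DESeq2 with hg38. Versions, annotation release and strand setting are not given in the sources used here, and 9.16% of the values were not whole numbers. Expected counts were rounded. Genes were kept by edgeR's filterByExpr (minimum count 10), which left 16697. All libraries entered 1 model of 16 groups (edgeR 4.0.16 in R 4.3.3, TMM, robust quasi-likelihood fit). The F test was two-sided with Benjamini-Hochberg adjustment over all genes tested, calls were made at an adjusted p under 0.05, and every adjusted p is from this test unless DESeq2 (1.42.0) is named. CPM are counts divided by TMM-scaled library sizes.

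The members and lists were chosen with earlier results of these data known. Values of single libraries are given for members called in all 8 lines, called in CLIP at 1.5-fold or more, or called in a difference between WT and CLIP, and for DCPS, which was added after its values were seen. A difference of knockdown effects is the log2 change in one line minus that in the other. Libraries with the same replicate number deviated together in all 8 knockdowns (correlations of deviations from group means of 0.115 to 0.469). Between the lines compared, these correlations ran from −0.103 (IR-ER siNT with WT siUPF1, replicate 1) to 0.493 (LECY siNT with WT siNT, replicate 3). The numbers were taken to pair the libraries, and a fit with the replicate block was run beside the main one. The block takes the effect of a replicate number to be the same in all groups, which held less well between some lines. Gene positions are from GENCODE 29, and promoters from RefSeq (GRCh38.p14). The fit was tested on simulated counts with known changes in CLIP cells with siUPF1. These counts were drawn with no effect of the replicate number, so the simulation does not cover the pairing of libraries.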

Additional observations from a re-analysis of the deposited data

Results flagged for a closer look

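In 3 genes the response to siUPF1 differed between lines by a test of the difference itself, 2 for WT against CLIP (3.77% of the 53, against 4.0% of all genes) and 1 for LECY against WT (1.89%, against 3.31%), shares no higher than the background. For EXOSC7 the log2 change in WT minus that in CLIP was −0.74 (adjusted p = 0.00561 in edgeR), with 17.5, 17.9 and 22.2 CPM in WT and 24.6, 31.4 and 29.8 CPM in CLIP with siUPF1. For TOB1 the log2 change in WT minus that in CLIP was 0.47 (adjusted p = 0.0214). For DCPS the log2 change in LECY minus that in WT was −0.68 (adjusted p = 0.0401). The EXOSC7 difference held with any 1 library left out, that of TOB1 in 6 of 12 such fits and that of DCPS in 4 of 12. The libraries whose loss ended the TOB1 call were siNT replicates 1 and 2 and siUPF1 replicate 2 of WT, and siNT replicate 3 and siUPF1 replicates 1 and 3 of CLIP. For DCPS they were siNT replicates 1 and 2 and siUPF1 replicates 2 and 3 of LECY, and siNT replicates 1 and 3 and siUPF1 replicates 1 and 2 of WT.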

How the results depend on the processing

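Of 114 called results of single genes, 71 held under every alternative fit and 76 with any 1 library left out, and none changed sign. The replicate block gave more calls, with 19 members in WT, 20 in I757R, 18 in IR-ER, 20 in E797R, 4 for WT against CLIP and 5 for LECY against WT, and it changed no other call count by over 1.5 times. Fitting only the libraries of the groups compared gave 6 in WT, 7 in I757R, and 0 for both WT against CLIP and LECY against WT. Without the filter on low counts there were 10 in FE-ER, 1 for WT against CLIP and 0 for LECY against WT, and DESeq2 gave 2 for the last of these. The cause was not tested. With each replicate left out in turn, the members called ranged from 16 to 19 in LECY, 11 to 15 in F192E, 10 to 12 in FE-ER, 7 to 11 in I757R, 6 to 9 in IR-ER, 6 to 10 in E797R, 7 to 10 in WT and 18 to 22 in CLIP. They ranged from 1 to 3 for WT against CLIP and from 0 to 3 for LECY against WT, and stayed at 0 for the other 13 comparisons. Of the 8 genes called in all lines, 6 were so called without the filter (EXOSC5 and DCP1A were not), 5 with only the groups compared (STAU1 was not either), and all 8 with DESeq2, its size factors and the block. EXOSC6 kept its call in all 48 fits that left out 1 library, as did CNOT6, PARN, STAU1 and RC3H2. The fewest counts were those of ZC3H12A, DCP1B, LSM6 and DCPS.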
